A study of Mus musculus with 4 samples.

Results

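The 10 genes described here are known for their response to load and injury in heart muscle cells, and they were followed by animal, cell fraction and cell class in the hearts of C57BL/6 mice. They are Nppb, Acta1, Myh7, Ankrd1, Xirp2, Fhl1, Nes, Des, Csrp3 and Sprr1a, and all 10 were found among 29245 gene columns. The genes were chosen by their higher UMI levels in cardiomyocyte wells of hearts labelled Mst1/2-deficient. The difference between genotypes is therefore given for them as a description, and no test of it is read. Hearts came from 2 wild-type animals (WT1 and WT2) and 2 Mst1/2-deficient animals (KO1 and KO2), and low-speed centrifugation had parted cardiomyocytes (CM fraction) from the remaining cells (NCM fraction). The labels used here do not give the allele, the cells in which the genes were deleted, the age of the animals, or whether a heart had been injured. Each of the 4 chips held wells of 1 genotype and 1 fraction, so within a fraction genotype and chip cannot be told apart.

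Adult ventricular muscle under load switches on part of its fetal gene programme. It releases natriuretic peptides, makes fetal isoforms of actin and myosin beside the adult ones, and adds proteins that sit at the Z-disc, the intercalated disc and in the intermediate filaments that tie these structures together. MST1 and MST2 are the core kinases of the Hippo pathway, which keeps the co-activators YAP and TAZ away from the TEAD transcription factors.

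Values are UMIs per 1000000 UMIs outside mitochondrial and haemoglobin genes (CPM), where a UMI is a tagged molecule counted once. A well entered with 10000 or more UMIs and 300 or more genes. The CM fraction kept 210, 274, 264 and 385 wells of WT1, WT2, KO1 and KO2, and these held between 13126144 (KO1) and 58208202 (KO2) such UMIs. The NCM fraction kept 692, 703, 715 and 747 wells with 26447307 to 93816921 such UMIs per animal. A well was called cardiomyocyte-like from the markers of its cluster, and no member was used in clustering or as a marker. This gave 119, 197, 137 and 275 wells in the CM fraction in the same order of animals. All 14 cardiomyocyte markers were present there, with 12.1, 12.9, 8.15 and 11.6% of the UMIs, against 0.199 to 0.875% over the NCM wells. Of the T or NK markers, 5 of 10 were at 0 in these wells, and neutrophil markers took at most 0.0142% of the UMIs. No CM well was named as either of these classes. Markers of classes present there took more of the UMIs of the cardiomyocyte-like wells. Those of fibroblasts, macrophages and vascular endothelial cells took at most 0.174, 0.143 and 0.151%, each in KO1. Stk4, which encodes MST1, stood at 12.2, 12.9, 29.3 and 6.03 CPM in the cardiomyocyte-like wells of these animals, and Stk3, which encodes MST2, at 3.87, 7.76, 5.95 and 7.505 CPM. These levels overlapped between genotypes, and without the deleted part of either gene they do not check the labels.

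KO1 stood apart from the other animals. Its cardiomyocyte-like wells had a median of 20453 UMIs outside mitochondrial and haemoglobin genes, against 52737, 73891 and 126901 in WT1, WT2 and KO2. Mitochondrial genes took a median of 59.1% of the UMIs of its wells, against 41.7, 39.2 and 36.6%. The atrial share, which is the share of Sln, Myl4 and Myl7 in the UMIs of these atrial genes plus the ventricular light chains Myl2 and Myl3, had a median of 3.07 and 0.405% in WT1 and WT2 and of 15.8 and 8.86% in KO1 and KO2. It was thus higher in both KO animals. Some marker lists of other cells were higher in both KO animals too. Those of fibroblasts, macrophages, vascular endothelial cells and pericytes overlapped between genotypes. Smooth muscle markers, all 7 of them detected, took 0.0269, 0.0264, 0.138 and 0.0550% of UMIs in WT1, WT2, KO1 and KO2, and skeletal muscle markers, 6 of 7 detected with Myh1 at 0, took 0.0391, 0.0367, 0.111 and 0.0752%. Erythroid markers, haemoglobin genes included, stood at 0.00348, 0.00463, 0.0205 and 0.167% with Slc4a1 at 0. The part of these RNAs in the members' differences was not tested, and subsets of wells by atrial share are given below.

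Promoters are shown for 3 members, Acta1, Xirp2 and Myh7, to set known muscle regulatory motifs beside the differences. For these members and for Des and Csrp3 a stretch before a start lay wholly outside the gene in GENCODE, and the 3 were picked among the 5 because they hold a motif, which those of Des and Csrp3 did not. All 10 members matched the RefSeq promoter table (GRCm38.p6), with 13 starts. The motifs searched on both strands were CATTCC, which is bound by TEAD factors, TATAAA, the GATA factor motif AGATAA, the CArG box of serum response factor and the MEF2 site, and matches are in capitals. The 250 bases before the start of Acta1 (chr8:123894776-123895025, minus strand), Xirp2 (chr2:67445752-67446001, plus strand) and Myh7 (chr14:54994627-54994876, minus strand) read 5′ to 3′ as follows.
Acta1: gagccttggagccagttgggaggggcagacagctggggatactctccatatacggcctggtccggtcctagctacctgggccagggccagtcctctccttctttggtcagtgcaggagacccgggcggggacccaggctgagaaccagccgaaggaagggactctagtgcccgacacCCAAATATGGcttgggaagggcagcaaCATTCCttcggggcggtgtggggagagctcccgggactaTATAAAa
Xirp2: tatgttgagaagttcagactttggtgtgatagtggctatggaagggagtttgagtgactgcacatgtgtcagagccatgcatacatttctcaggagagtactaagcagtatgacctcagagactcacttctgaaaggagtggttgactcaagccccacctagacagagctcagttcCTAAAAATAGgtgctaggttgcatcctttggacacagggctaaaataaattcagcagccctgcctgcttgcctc
Myh7: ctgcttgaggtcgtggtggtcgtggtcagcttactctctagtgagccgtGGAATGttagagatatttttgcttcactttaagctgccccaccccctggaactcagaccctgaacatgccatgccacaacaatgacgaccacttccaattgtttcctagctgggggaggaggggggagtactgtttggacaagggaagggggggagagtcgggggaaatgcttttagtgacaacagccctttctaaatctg
The Acta1 stretch held a CArG box 73 to 64 bases, a CATTCC 46 to 41 bases and a TATAAA 7 to 2 bases before the start. These positions count from the RefSeq start, and GENCODE places the start of Acta1 further downstream, at 123894751. The Xirp2 stretch held a MEF2 site 74 to 65 bases before the start, and that of Myh7 a CATTCC on the opposite strand. CATTCC was found for 4 members (Nppb, Acta1, Myh7 and Ankrd1) and in 12.6% of all 32851 promoters. The CArG box was found for 2 members (Acta1 and Fhl1) and in 1.47% of promoters, and the MEF2 site for 1 member (Xirp2) and in 2.92%. TATAAA was found for 4 members and in 12.4% of promoters, and AGATAA for 2 members (Nppb and Ankrd1) and in 9.99%. None of these motifs overlapped another in the 3 stretches shown, and a match describes letters and not binding.

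In cardiomyocyte-like wells of the CM fraction all 10 members were higher in both KO animals than in both WT animals. Among all 12584 genes tested the same held for 20.2%, and 16.2% were lower in both KO animals. The quasi-likelihood test of edgeR with Benjamini-Hochberg adjustment called 0% of those genes (0 genes, with 598 at an unadjusted p under 0.05), while DESeq2 called 55 higher and 19 lower in KO. The test is given for the background only. The count of 10 was for sums of UMIs. With each well given equal weight it was 9, since Myh7 then stood at 233, 354, 356 and 341 CPM in WT1, WT2, KO1 and KO2. KO1 had the higher KO value of every member. Without KO1 the fitted log2 difference was 0.79 for Nppb, 0.52 for Acta1, 0.78 for Xirp2, 0.99 for Des, 1.31 for Sprr1a, 1.91 for Nes and 1.03 for Fhl1. Without KO2 the same differences ran from 1.37 (Nppb) to 3.63 (Nes). For Myh7, Ankrd1 and Csrp3 they were smaller, at 0.34, 0.38 and 0.29 without KO1 and 0.32, 0.58 and 0.37 without KO2. Fold over the mean of WT1 and WT2 ran from 1.58 (Myh7) to 15.5 (Nes) in KO1 with a median of 3.995, and from 1.22 (Csrp3) to 3.69 (Nes) in KO2 with a median of 1.71.

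**Figure D1:**
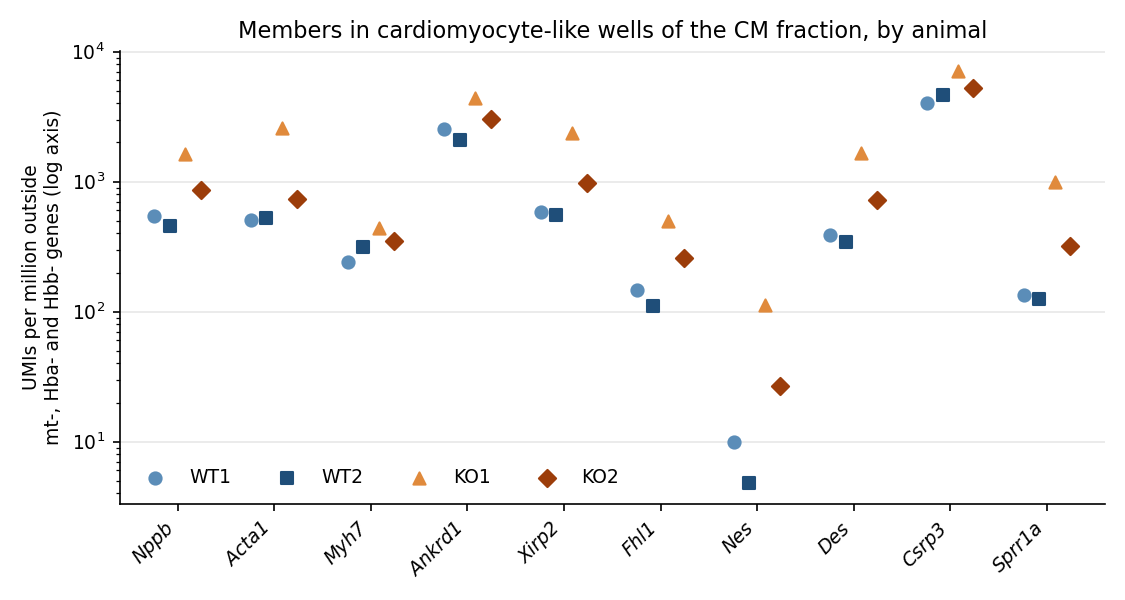
CPM outside mitochondrial and haemoglobin genes (log axis) for each of the 10 members in the cardiomyocyte-like wells of the CM fraction, with 1 point per animal (WT1, WT2, KO1 and KO2). Both KO points lie above both WT points for every member, and KO1 lies above KO2; Nes runs from 4.77 CPM in WT2 to 113 CPM in KO1.

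Nppb encodes the precursor of B-type natriuretic peptide, a hormone that stretched heart muscle cells release. The gene (ENSMUSG00000029019) is on chromosome 4 of mm10, from 147985788 to 147987205, plus strand. Its level was 544 CPM in WT1, 456 in WT2, 1628 in KO1 and 857 in KO2. The genotypes did not overlap, and the fitted log2 difference between KO and WT was 1.12 (SE 0.375). Nppb UMIs lay in 110 of 119 and 192 of 197 wells of WT and in 133 of 137 and 274 of 275 wells of KO. Macrophage-like wells of the same chips held them as often (96.9, 100, 91.3 and 100% of wells), so these shares are not above background. After thinning of each well to 5000 UMIs the shares were 68.9, 80.1, 92.5 and 90.9% in cardiomyocyte-like and 56.2, 55, 60.9 and 85% in macrophage-like wells. The cardiomyocyte-like well at the median held 359, 403, 1500 and 724 CPM in the same order. In WT1, however, 1 well carried 22.3% of all Nppb UMIs.

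The fetal contractile isoforms Acta1 and Myh7 came next. Acta1 (ENSMUSG00000031972, chromosome 8 from 123891769 to 123894751, minus strand) encodes skeletal alpha-actin, which the fetal heart uses beside the cardiac form from Actc1. WT1 held 511 CPM, WT2 527, KO1 2597 and KO2 740 (log2 1.44, SE 0.529). The KO animals lay 3.51-fold apart, further than KO2 lay from WT. A single well of WT1 carried 26.1% of that animal's Acta1 UMIs. Vascular endothelial-like CM wells held Acta1 at 1277, 617, 1280 and 514 CPM in WT1, WT2, KO1 and KO2. These values were above the cardiomyocyte-like level in both WT animals and below it in both KO animals.

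Myh7 (ENSMUSG00000053093, chromosome 14 from 54970684 to 54994626, minus strand) encodes the slow beta-myosin heavy chain, which the adult mouse ventricle largely replaces by the alpha chain from Myh6. Its CPM were 241 (WT1), 315 (WT2), 440 (KO1) and 348 (KO2; log2 0.34, SE 0.331). KO2 lay close to WT2, the median well of KO1 (143 CPM) lay below that of WT2 (192 CPM), and the fitted difference was about as large as its standard error. In KO1 a single well carried 24.4% of the Myh7 UMIs, and without that well KO1 stood at 350 CPM.

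The share of each isoform within its pair does not depend on the library total, although reads of such near-identical paralogs (Acta2 is a further one of Acta1) may be split uncertainly by the counting. Of Myh6 plus Myh7 UMIs, Myh7 took 2.94% (WT1), 2.88% (WT2), 7.20% (KO1) and 3.63% (KO2). The difference of means was 2.51 percentage points. Without its top Myh7 well the share of KO1 was 5.67%. Acta1 took 5.50 and 5.96% of Acta1 plus Actc1 UMIs in WT and 19.7 and 6.50% in KO, a difference of 7.36 percentage points. Both genes are members and 2 against 2 animals cannot go below an exact permutation p of 0.333, so no test of these shares is read. Most of both differences came from KO1, and without KO1 they were 0.725 and 0.772 percentage points. In wells with at least 10% of UMIs in cardiomyocyte markers, of which KO1 had 14, the Acta1 share read 8.46% (WT1), 6.40% (WT2), 3.798% (KO1) and 6.43% (KO2), so its direction turned, while the Myh7 share stayed higher in KO (2.76 and 2.90 against 8.30 and 3.53%). In cluster 2, the larger of the clusters of cardiomyocyte-like wells, the Acta1 share of KO2 (7.28%) lay below both WT values (7.70 and 7.44%).

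**Figure D2:**
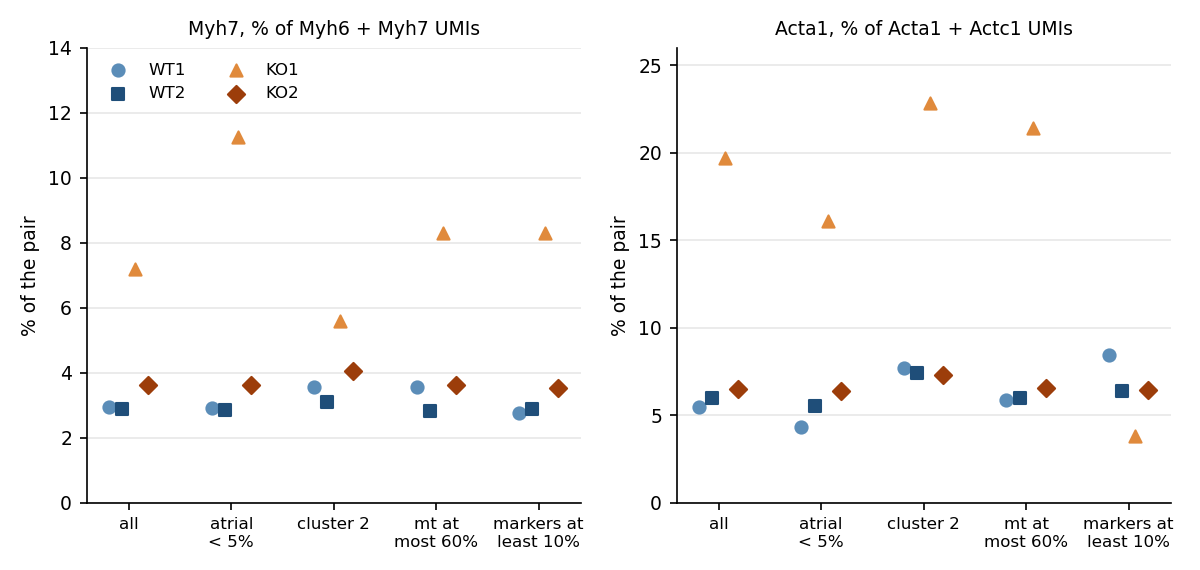
Myh7 as a percentage of Myh6 plus Myh7 UMIs (left) and Acta1 as a percentage of Acta1 plus Actc1 UMIs (right) in cardiomyocyte-like wells, with 1 point per animal, over all such wells and over 4 other choices of wells (atrial share under 5%, cluster 2, at most 60% mitochondrial UMIs, at least 10% cardiomyocyte markers). KO1 stands alone in most panels (7.20% for Myh7 and 19.7% for Acta1 over all wells), and its Acta1 share is 3.798% in the wells with at least 10% markers.

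Among proteins of the Z-disc and the intercalated disc, Xirp2 and Fhl1 had larger fitted differences than Ankrd1 and Csrp3. Xirp2 (ENSMUSG00000027022, chromosome 2 from 67446002 to 67526614, plus strand) encodes an actin-binding Xin repeat protein of the intercalated disc. WT1 held 584 CPM, WT2 557, KO1 2374 and KO2 969 (log2 1.34, SE 0.431). WT1 and WT2 were nearly equal, and each KO animal was well above them. The median well of WT1, WT2, KO1 and KO2 held 430, 441, 2394 and 813 CPM.

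Fhl1 (ENSMUSG00000023092, chromosome X from 56731787 to 56793346, plus strand) encodes a LIM-domain protein that binds titin. Its CPM were 147 (WT1), 111 (WT2), 494 (KO1) and 260 (KO2; log2 1.35, SE 0.372). Both KO animals were above both WT animals, and KO2 alone stood 2.02-fold over the WT mean.

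Ankrd1 (ENSMUSG00000024803, chromosome 19 from 36111961 to 36120099, minus strand) encodes an ankyrin repeat protein that sits on titin and also enters the nucleus. WT1 held 2557 CPM, WT2 2098, KO1 4401 and KO2 3006 (log2 0.50, SE 0.387). Every cardiomyocyte-like well of all 4 animals held Ankrd1 UMIs, as did every macrophage-like well of the same chips, and 1 well of WT1 carried 26.8% of that animal's.

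Csrp3 (ENSMUSG00000030470, chromosome 7 from 48830398 to 48848033, minus strand) encodes muscle LIM protein of the Z-disc. Its CPM were 3991 (WT1), 4630 (WT2), 7051 (KO1) and 5239 (KO2; log2 0.35, SE 0.409). The genotypes did not overlap, but the gap from WT2 to KO2 was smaller than that from WT1 to WT2. In cluster 2 alone the fitted difference was −0.03.

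Intermediate filament genes were higher too. Des (ENSMUSG00000026208, chromosome 1 from 75360329 to 75368579, plus strand) encodes desmin, the main intermediate filament of muscle. WT1 held 392 CPM, WT2 346, KO1 1657 and KO2 725 (log2 1.48, SE 0.410). Its UMIs lay in at least 96.4% of the wells of each animal. Macrophage-like wells of the same chips, at unlike depths, held them in 96.9, 95, 100 and 100%. After thinning to 5000 UMIs the shares were 71.4, 70.4, 93.98 and 90.2% against 43.75, 65, 60.9 and 90%. The exact 95% intervals were apart in KO1 (88.5 to 97.4% and 38.5 to 80.3%) and narrowly in WT1 (62.43 to 79.3% and 26.4 to 62.34%). They overlapped in WT2 and KO2. No animal had more than 14.2% of its Des UMIs in a single cardiomyocyte-like well.

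Nes (ENSMUSG00000004891, chromosome 3 from 87971078 to 87980451, plus strand) encodes nestin, an intermediate filament of progenitor cells and of vessels. Its CPM were 9.85 (WT1), 4.77 (WT2), 113 (KO1) and 26.99 (KO2; log2 3.02, SE 0.753). These levels rested on few wells, and the log2 difference was 1.91 without KO1. With each well given equal weight the log2 ratio of means was 2.46, against 3.26 for the sums. Nes UMIs lay in 14 of 119 wells of WT1 (11.8%, exact Clopper-Pearson 95% interval 6.58 to 18.95), 22 of 197 of WT2 (11.2%, 7.13 to 16.4), 27 of 137 of KO1 (19.7%, 13.4 to 27.4) and 60 of 275 of KO2 (21.8%, 17.1 to 27.2). At least 50% of the Nes UMIs of KO1 came from 2 wells, and 3, 3 and 6 wells held that part in WT1, WT2 and KO2. After each well was thinned to 5000 UMIs, 2.52, 1.53, 13.5 and 6.18% of the wells held Nes UMIs, against 3.12, 0, 4.35 and 0% of the macrophage-like wells of the same chips (32, 20, 23 and 20 wells), whose intervals reach up to 21.9%. Intervals here cover counting error only.

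Sprr1a (ENSMUSG00000050359, chromosome 3 from 92483952 to 92485895, minus strand) encodes a small proline-rich protein, best known from the skin barrier and induced in stressed heart muscle. WT1 held 134 CPM, WT2 124, KO1 996 and KO2 318 (log2 2.11, SE 0.491). In WT2 a single well held 43.9% of its UMIs, and with the top well of each animal left out the log2 ratio of means was 2.70. After the same thinning, Sprr1a UMIs lay in 26.1 and 11.7% of the cardiomyocyte-like wells of WT and in 55.6 and 47.3% of those of KO (41.2, 29.9, 71.5 and 84.4% before thinning), with 0, 1, 4 and 0 shallower wells left out. In macrophage-like wells of the CM fraction, a class that should lack the gene, the thinned shares were 28.1, 10, 60.9 and 20% (50, 25, 73.9 and 85% before), at median depths of 70972 to 144140 UMIs. The shares of WT1 and KO1 were therefore at or below the background in their own chips, that of WT2 was close to it, and that of KO2 (interval 41.2 to 53.4%) overlapped the interval of its background (5.73 to 43.7%). Sprr1a levels in these macrophage-like wells were 87.8, 25.8, 560.4 and 117 CPM in WT1, WT2, KO1 and KO2, higher in both KO animals as well. In macrophage-like wells of the NCM fraction the shares were 0, 0, 10.3 and 2.04%.

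The members did not depend alike on the choice of cardiomyocyte wells. With the atrial share under 5% (83, 179, 45 and 67 wells) both KO animals were again above both WT animals for 10 of 10 members, with folds over the WT mean of 1.57 to 15.6 in KO1 and 1.12 to 3.21 in KO2. With an atrial share of 5 to 50%, which held most KO wells (36, 15, 77 and 199 wells), it was 9 of 10, and Acta1 of KO2 stood at 0.811 of the WT mean. The count was also 10 of 10 in cluster 2 alone (84, 105, 134 and 226 wells), where the median fold was 4.55 in KO1 and 1.84 in KO2, and in wells with at most 60% mitochondrial UMIs (medians 4.11 and 1.74). In wells with at most 1% of UMIs in markers of other classes it was 10 of 10 too. These counts use CPM. In cluster 2 Csrp3 was counted at 4337, 5364, 7061 and 5428 CPM, although its fitted difference, which used another scaling, was −0.03. The count was 7 of 10 in cluster 9, led by Arhgap21, Ttn and Atp2a2, where KO1 had 3 wells, and 6 of 10 in wells above 60% mitochondrial UMIs. With at least 10% of UMIs in cardiomyocyte markers (104, 178, 14 and 270 wells) it was 8 of 10. The exceptions were Acta1, with a log2 difference of −0.16, and Nes (18.3, 5.32, 10.8 and 26.6 CPM), whose log2 difference was 0.63. Other log2 differences in these wells were 0.61 for Nppb, 0.69 for Fhl1, 0.91 for Sprr1a and 0.93 for Xirp2, smaller than over all cardiomyocyte-like wells, and 0.94 for Ankrd1, 1.11 for Myh7 and 1.80 for Des, which were larger. Wells with an atrial share over 50% numbered 0, 3, 15 and 9, too few to set beside each other.

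**Figure D3:**
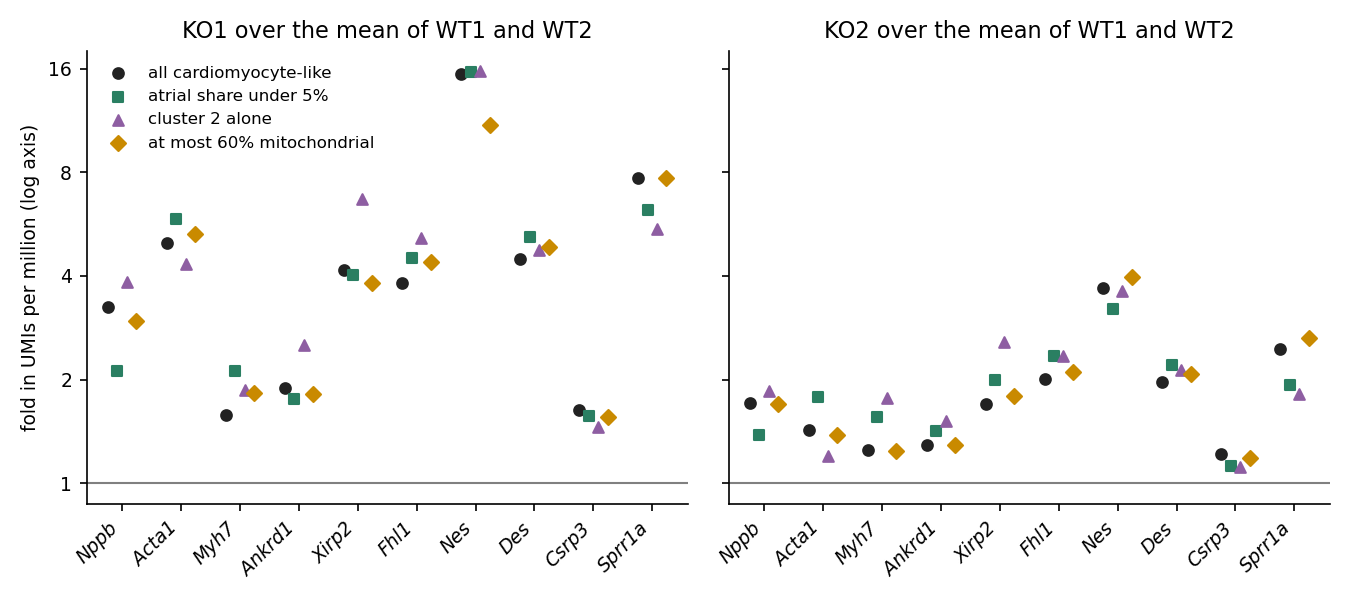
Fold of KO1 (left) and KO2 (right) over the mean of WT1 and WT2 in CPM (log axis, line at 1) for each member, over all cardiomyocyte-like wells and over 3 subsets of them. All points lie above 1; over all wells the folds of KO1 run from 1.58 to 15.5 and those of KO2 from 1.22 to 3.69.

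Other wells of the CM fraction carried the members as well. These wells, mostly vascular endothelial-like, macrophage-like and fibroblast-like, numbered 91, 77, 127 and 110, and the 14 cardiomyocyte markers reached a median of 41.0, 44.3, 29.0 and 67.2% of their level in the cardiomyocyte-like wells of the same animal. Nppb stood in them at 153, 326, 623 and 547 CPM in WT1, WT2, KO1 and KO2, which is 28.1, 71.5, 38.3 and 63.8% of its cardiomyocyte-like level. Xirp2 stood at 204, 270, 1090 and 677 CPM (34.9, 48.5, 45.9 and 69.9%). Shares of both genes lay on either side of the marker median, and those of Des lay below it in every animal, at 139, 147, 413 and 433 CPM (35.6, 42.7, 24.9 and 59.7%). Cardiomyocyte RNA in these wells and RNA of their own cells cannot be told apart for such genes.

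In these other wells 8 of 10 members were higher in both KO animals, against 18.6% of 13203 genes. The exceptions were Myh7 (65.4 and 158 against 98.4 and 182 CPM) and Nes (39.5 and 6.40 against 59.97 and 34.2 CPM), whose genotypes overlapped. The largest fitted differences were those of Sprr1a (log2 2.11, SE 0.421), Fhl1 (2.07, SE 0.405), Xirp2 (1.76, SE 0.404) and Des (1.47, SE 0.364), with a median of 1.06 over the members and 0.02 over all genes. EdgeR called 0 of those genes (630 at an unadjusted p under 0.05; DESeq2 23 higher and 32 lower). Cardiomyocyte markers took 4.88 and 6.45% of UMIs in WT against 2.40 and 7.84% in KO there, so the markers themselves overlapped between genotypes.

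The difference between genotypes in cardiomyocyte-like wells minus that in other wells of the same chips was fitted as an interaction with the animal as a block. Among the members it ran from log2 −0.72 (Fhl1, SE 0.415) to 1.49 (Nes, SE 0.7999). EdgeR called 0 of 14223 genes (601 at an unadjusted p under 0.05; DESeq2 22 with a larger and 5 with a smaller difference in cardiomyocyte-like wells). Nothing is read from this fit for the members, which were chosen on the cardiomyocyte wells and whose comparison wells carried cardiomyocyte RNA.

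**Figure D4:**
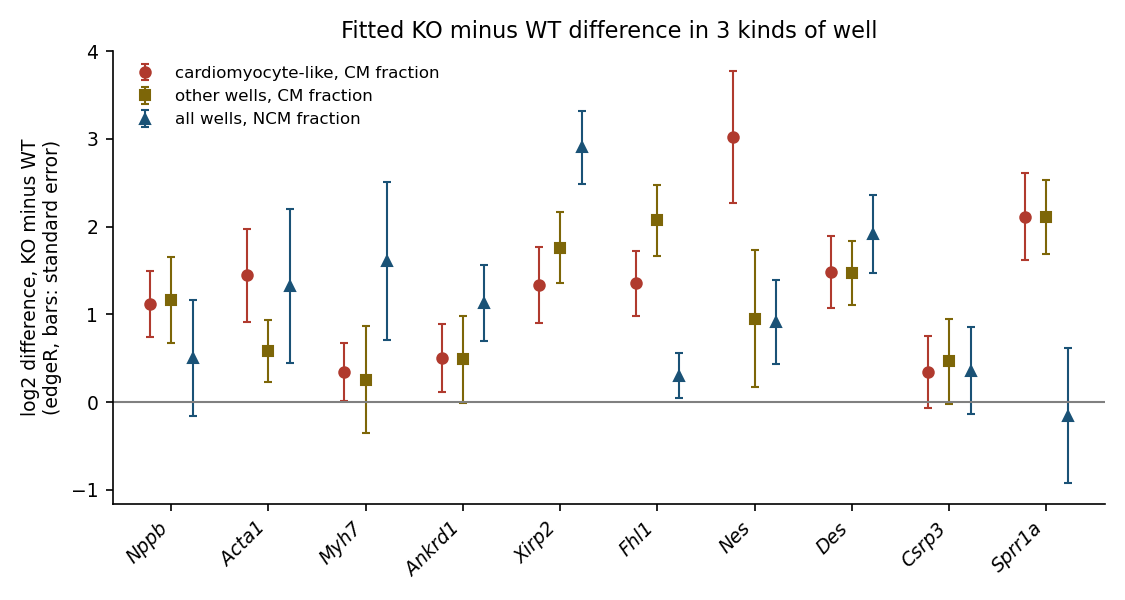
Fitted log2 difference between KO and WT (edgeR, bars are standard errors, 2 against 2 animals) of each member in cardiomyocyte-like wells of the CM fraction, other wells of the CM fraction and all wells of the NCM fraction. Xirp2 and Des are above 1 in all 3 kinds of well, Nes is highest in cardiomyocyte-like wells (3.02), and Sprr1a is above 2 in both kinds of CM wells but −0.16 in the NCM fraction.

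The NCM chips are other libraries of the same animals and held only 6 cardiomyocyte-like wells. Over all their wells 6 of 10 members were higher in both KO animals, against 26.9% of 17216 genes tested. The median mitochondrial share of these wells was 9.03, 14.1, 64.6 and 43.7% in WT1, WT2, KO1 and KO2. With wells above 60% left out the count was 4 of 10 (Xirp2, Fhl1, Nes and Des), as Acta1 (5.60, 49.8, 33.2 and 82.7 CPM) and Ankrd1 (50.1, 108.5, 80.97 and 219.6 CPM) overlapped. Erythroid markers took 1.30, 4.02, 11.99 and 23.2% relative to the same UMI totals, and their part was not tested. Of 4581 Acta1 UMIs of KO2 outside its cardiomyocyte-like wells, 2877 came from 5 of its 19 neutrophil-like wells. EdgeR called 0 of these genes (2075 at an unadjusted p under 0.05). DESeq2 called 332 higher and 247 lower, with Xirp2 and Des among the former, but no test of the members is read. Xirp2 stood at 7.52 (WT1), 14.4 (WT2), 105 (KO1) and 79.8 CPM (KO2; log2 2.90, SE 0.417), and Des at 10.9, 20.998, 57.4 and 76.8 CPM (log2 1.92, SE 0.440). Both stood well apart between genotypes. Nppb (5.98, 22.9, 21.6 and 24.5 CPM in WT1, WT2, KO1 and KO2), Myh7, Csrp3 and Sprr1a overlapped. For Nppb and Myh7 this hung on the 6 cardiomyocyte-like wells, which were of WT2 and KO2. Without those wells Nppb stood at 5.98, 21.0, 21.6 and 24.5 CPM and Myh7 at 1.75, 6.15, 6.88 and 22.1 CPM. Both were then higher in both KO animals, by small gaps between WT2 and KO1, while Csrp3 and Sprr1a still overlapped. Cardiomyocyte markers took 0.199 and 0.514% of the UMIs in WT against 0.396 and 0.875% in KO over these wells, and 21 of 23 tested partners of the sarcomere list were higher in KO with a median log2 of 0.48, against 1.02 for the members and −0.0056 for all genes. Their part in the members' difference was not tested, and fewer cells of a type cannot be told apart from less RNA per cell in such sums.

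Fhl1 and Nes were carried outside muscle wells well above the cardiomyocyte markers. In fibroblast-like NCM wells (155, 121, 96 and 121) Fhl1 stood at 108, 108, 201 and 134 CPM in WT1, WT2, KO1 and KO2. That was 73.4, 97.6, 40.6 and 51.6% of its level in cardiomyocyte-like wells, while the markers reached 0.985, 1.65, 2.04 and 4.10%. After thinning to 5000 UMIs, 30.3, 25.6, 24.0 and 21.5% of these wells held Fhl1 UMIs (72.9, 68.6, 45.8 and 56.2% before), against 9.43, 0, 5.13 and 0% of macrophage-like NCM wells (33.96, 38.04, 15 and 16.3% before). Median depths were 46101 to 172469 UMIs in the former and 46332 to 204427 in the latter.

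Nes levels were higher in vascular endothelial-like wells of the NCM fraction than in muscle. In vascular endothelial-like NCM wells (64, 153, 246 and 122) it stood at 91.8, 123, 194 and 47.8 CPM, above its cardiomyocyte-like level in every animal, and the genotypes overlapped. Of these wells 17.2, 12.4, 17.4 and 15.7% held Nes UMIs after thinning (25, 26.8, 33.3 and 34.4% before), with 0, 0, 5 and 1 shallower wells left out. Macrophage-like NCM wells held them in 3.77, 2.17, 17.9 and 10.2% (17.9, 16.3, 42.5 and 36.7% before), so the share in endothelial wells was at the background in KO1. Its interval was only just apart from that of the background in WT2 (7.64 to 18.7% and 0.264 to 7.63%), a gap that another random thinning could close. It overlapped the background in WT1 (8.90 to 28.7% and 1.04 to 9.38%) and KO2 (9.73 to 23.4% and 3.40 to 22.2%). Median depths were 25740 to 53342 UMIs in the endothelial wells. Vascular endothelial markers took 0.0440, 0.0528, 0.151 and 0.05001% of the UMIs of the cardiomyocyte-like wells, so KO1, which had the most Nes, also had the most of these markers there. Their part in the Nes level was not tested. Vascular endothelial-like wells of the CM fraction held Nes at 141, 13.989, 51.3 and 48.2 CPM in WT1, WT2, KO1 and KO2. These levels were above the cardiomyocyte-like level in WT1, WT2 and KO2, but below it in KO1 (113 CPM). High Nes was not confined to endothelial wells. Unnamed NCM wells (245, 218, 263 and 392) held it at 64.0, 162, 161 and 112 CPM, and fibroblast-like NCM wells at 16.5, 4.60, 56.8 and 55.1 CPM. In pericyte-like NCM wells, few in number (9, 14, 6 and 7), Nes stood at 1.72, 231, 240 and 18.0 CPM. Fhl1 reached 96.5, 392, 117 and 244 CPM there and Des 8.62, 143, 86.6 and 188 CPM, and all 3 genes overlapped between genotypes in these pericyte-like wells.

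**Figure D5:**
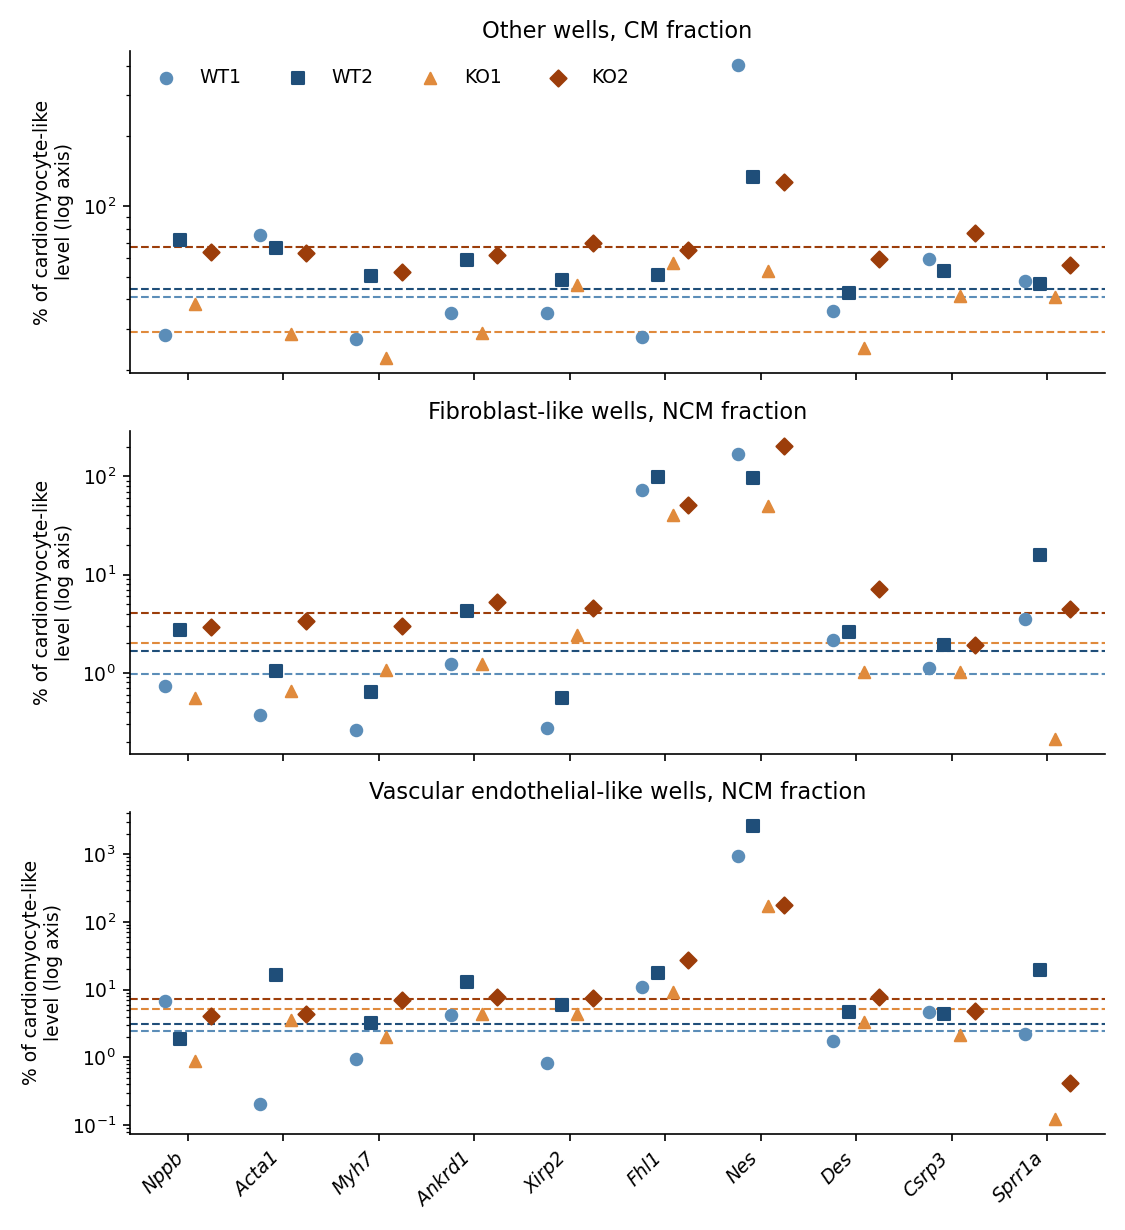
Level of each member as a percentage of its level in the cardiomyocyte-like wells of the same animal (log axis), in other wells of the CM fraction, fibroblast-like and vascular endothelial-like wells of the NCM fraction, with 1 point per animal. Dashed lines give the median of the 14 cardiomyocyte markers in each animal; Fhl1 in fibroblast-like wells (40.6 to 97.6%) and Nes in both NCM classes lie far above these lines.

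Levels across classes tied most members to muscle genes. Over 32 sums by animal, fraction and class, which share libraries and depth, and among 8323 genes, the gene most like Nppb was Csrp3 (Pearson r = 0.95 of log2 CPM), a member itself. Ankrd1 was most like Actn2 (0.96), Myh7 most like Myom1 (0.96), Acta1 most like Ankrd23 (0.93), Xirp2 most like Des (0.95) and Sprr1a most like Synpo2l (0.92). Fhl1 and Nes had looser neighbours, Fam162a (0.73) and Myo1c (0.79). These correlations describe the sums and carry no test. Across single cardiomyocyte-like wells thinned to 5000 UMIs and centred by animal, the 45 pairs of members had a median r of 0.02. Counts of many members were sparse there, though not those of Ankrd1 and Csrp3. These 2 lay in 97.5 to 100% and 99.2 to 100% of the thinned wells per animal, and their r was −0.035. No finding is read from these values.

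Many listed genes of the fetal and stress programme, a list chosen with results of these data known, were also higher in both KO animals. Of 30 tested genes of that list, 27 were higher in KO in cardiomyocyte-like wells and 19 were higher in both KO animals (20.2% of all genes), with 0 past the edgeR test and a median log2 of 1.10, against −0.0047 over all genes. The list holds the atrial genes Sln (264, 349, 6122 and 1371 CPM; log2 3.36, SE 0.670) and Myl4 (2.62, SE 0.407), which are the genes of the atrial share, and Uchl1, a ubiquitin hydrolase (2.73, SE 0.821). Sln and Myl4 passed under DESeq2 (adjusted p = 6.1e-06 and 3.3e-05), but no test is read for a list chosen with results known. Partners in the sarcomere, Z-disc and filaments went the other way in number, with 5 of 24 higher in KO, 8 lower in both KO animals (16.2% of all genes) and a median of −0.25. The ventricular light chain gene Myl2 stood at 8719 (WT1), 11315 (WT2), 3462 (KO1) and 7620 CPM (KO2; log2 −0.93, SE 0.601), and the junction genes Cdh2 (−0.79, SE 0.374) and Dsp (−0.76, SE 0.348) were also lower in both KO animals.

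Genes of the receptor, transcription factor and signalling lists had median differences below that of all genes (−0.0047). Lower in both KO animals were 3 of 6, 4 of 18 and 6 of 21 of them, against 16.2% of all genes. Of 6 tested natriuretic peptide receptor and processing genes, 2 were higher in KO (median log2 −0.42). Corin, the protease that activates natriuretic peptides, stood at 76.1, 93.9, 66.8 and 55.8 CPM (log2 −0.63, SE 0.368), and the receptor gene Npr2 differed by −1.37 (SE 0.738). Of 18 transcription factor genes 5 were higher (median −0.46), with Mrtfb at −1.91 (SE 1.01), Mef2d at −0.98 (SE 0.882) and Tbx5 at 1.59 (SE 0.819). Of 21 signalling genes 8 were higher (median −0.40), with the calcium-dependent kinase gene Camk2d at −1.12 (SE 0.443), Gnaq at 1.92 (SE 1.03) and Mapk3 at 1.72 (SE 0.910). The last 2 rested on KO1, at 179 and 54.4 CPM against 12.2 and 8.39 CPM in KO2, and without KO1 Gnaq differed by −0.73 and Mapk3 by 0.12. None of these list genes passed the edgeR test over all genes.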

How the data were processed

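Polyadenylated RNA of single wells was sequenced from the CM and NCM fractions of 4 mouse hearts on 4 chips. The deposited values are UMI counts per gene and well, and their sum equalled the UMI total of the accompanying per-well report in all 4315 wells; that report also names each well's animal and fraction. Per the submitters' processing notes, STAR 2.5.2b, Subread 1.4.6-p1 and featureCounts were used with mm10. Collapsing of UMIs, annotation and use of strand are not given in sources used here. Of 29245 gene columns 28604 matched a symbol. Spike-ins, with 4.98e-05% of UMIs, and 40 control wells were left out (20 negative wells held 12 member UMIs in all). No column lacked a sample (0). Well barcodes repeated between libraries (60 to 400 shared), as positions of a chip do.

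Wells (3990 kept) were clustered with scanpy 1.11.5 (2000 variable genes, 30 components, 15 neighbours, Leiden resolution 1) without the members, mitochondrial and haemoglobin genes. A cluster was named when at least 3 markers of a class were among its 30 leading genes and no other class had more in its top 10. Folds for this ranking were taken within each library, and cluster 9 was named in this way. Cluster 2 got its name only from a wider ranking, with folds over the wells of every library. That ranking also set CM chips against NCM chips. Cluster 2 held most of the cardiomyocyte-like CM wells (84, 105, 134 and 226 in WT1, WT2, KO1 and KO2). Doublets called by Scrublet (20, 10, 0 and 3 per library) stayed in. UMI counts were summed per animal and fitted with edgeR 4.0.16 (TMM, filterByExpr, quasi-likelihood test, Benjamini-Hochberg at 0.05) in R 4.3.3, after tests on simulated data. DESeq2 1.42.0 was the other tool. Standard errors are the fitted difference over the square root of F. The per-well reports name 2 animals per genotype, and p-values measure the spread between these. Likeness used log2(CPM + 10) over sums of at least 20 wells. Positions are from GENCODE on mm10.

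The members and gene lists were chosen with earlier results of these data known. Besides the members, the rule names the 3 genes of each list with the largest difference at a mean of at least 10 CPM (2 genes in the natriuretic list, which had no more). Alternatives were other scaling, filters, tools, well choices and each animal left out; the subsets with an atrial share under 5% and of cluster 2 alone were chosen after seeing the data.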

Additional observations from a re-analysis of the deposited data

Results flagged for a closer look

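Sprr1a went opposite ways in 2 classes. It was higher in both KO animals in cardiomyocyte-like wells, but lower in both in vascular endothelial-like wells of the NCM fraction, at 2.94 and 23.9 CPM in WT1 and WT2 against 1.21 and 1.35 CPM in KO1 and KO2 (KO mean 1.28 CPM). The latter levels rested on 14, 326, 10 and 10 UMIs in 4, 5, 6 and 4 wells. The difference between these classes was not tested.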

How the results depend on the processing

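EdgeR called 0 genes in each comparison under most settings. Exceptions in cardiomyocyte-like wells were DESeq2 (55 higher, 19 lower) and no filter on low counts (83 and 19), in other CM wells DESeq2 (23 and 32) and no filter (26 and 44), in NCM wells DESeq2 (332 and 247) and no filter (113 and 113), and in the interaction DESeq2 (22 larger, 5 smaller) and no filter (3 larger). With each animal left out, the remaining lone animal being assumed to vary like the other group, counts ran from 0 to 189 higher and 0 to 236 lower in cardiomyocyte-like wells, 0 to 2 higher in other CM wells, 0 to 1 lower in NCM wells, and 0 to 30 larger and 0 to 7 smaller in the interaction; 189, 236, 30 and 7 were without KO2, where KO1 stood alone. The Acta1 share turned to −2.32 percentage points in wells with at least 10% cardiomyocyte markers; without 1 animal it ran from 0.772 to 13.95 and the Myh7 share from 0.725 to 4.29.

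Of 210 values of the members in cardiomyocyte-like wells, 2 turned (Acta1 −0.16 at 10% markers, Csrp3 −0.028 in cluster 2) and 1 moved (Nes 2.46 with the mean of wells). Nes and Sprr1a passed the threshold under DESeq2 and with no filter. No test is read for the members, which were chosen by these levels. With 1 animal left out, Myh7 ran from −0.50 (without KO2) to 1.13 and Ankrd1 from −0.049 (without KO2) to 0.87 in other CM wells, and in NCM wells Nppb ran from −0.17 (without WT1) to 1.80, Csrp3 from −0.20 (without WT1) to 1.27 and Sprr1a from −0.92 to 1.52 (without WT2). Sprr1a there was also 0.029 with library totals, 0.17 with wells above 60% mitochondrial UMIs left out and 0.30 with the replicate block. The interaction of Nes was −1.17 at 10% markers. Among list genes Corin was 0.18 in cluster 2, Mrtfb −2.75 to 0.12 (without WT2) and Gnaq −0.73 (without KO1) to 2.79 with 1 animal left out, and Gnaq −1.56 at 10% markers and −1.21 at an atrial share under 5%. The causes were not tested. Library totals moved the median of all genes from −0.0047 to 0.14 in cardiomyocyte-like wells, from 0.02 to 0.12 in other CM wells and from −0.0056 to 0.16 in NCM wells.

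Animal numbers only name animals. Deviations of same-numbered animals correlated at 0.06, 0.10 and −0.0041 in cardiomyocyte-like, other CM and NCM wells, and the fit with the replicate block called 0 genes in each (565, 675 and 1629 at an unadjusted p under 0.05). The fitted differences of Myh7 and Csrp3 were within about 1 SE of 0.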
